A study of Homo sapiens with 8 samples.

Results

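The 52 genes described here encode the proteins that license replication origins and copy DNA at the fork. They were taken by symbol, with the Ensembl identifiers of the count files mapped to gene symbols, and all 52 were found among the 58051 genes counted. Cells license an origin when the origin recognition complex, CDC6 and CDT1 load a ring of MCM proteins onto DNA. At the start of S phase CDC45 and the GINS proteins join this ring to form the moving helicase, and polymerases held by the PCNA clamp copy both strands behind it. Many of these genes are known to be transcribed most at the passage from G1 into S phase, which in cultured cells depends on serum growth factors.

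RNA was measured in 8 libraries from A375, a human melanoma cell line. Wild-type lines named WT1 to WT4, each derived from A375 as a single-cell clone, were cultured in DMEM for 12 h either with 10% fetal bovine serum (the serum group, n = 4) or with no serum (the serum-free group, n = 4). Ribosomal RNA was depleted before library preparation. In the deposited data the WT4 libraries carry another name, so the identity of that line rests on its labels. Reads counted on genes numbered 39647157, 67101005, 45095740 and 29759279 in WT1 to WT4 with serum, and 40468165, 73341551, 37847737 and 53371498 without. The least counted member, *POLE2*, still had 297 reads in its lowest library, so all 52 members passed the filter on low counts and were among the 17671 genes tested. Values are given as CPM, read counts scaled to library size by TMM, and wherever 4 values follow each other they belong to WT1, WT2, WT3 and WT4 in that order. The p-values measure the spread between these 8 libraries, each line being 1 clone of 1 cell line.

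The labelled cell type was checked against 8 markers of the melanocyte lineage. *MITF*, the lineage's transcription factor, lay between 30.1 and 44.2 CPM and *S100B* between 13.6 and 34.9 CPM. The pigment genes *PMEL*, *MLANA*, *DCT*, *TYR* and *TYRP1* were all low, none above 2.90 CPM in any library. *SOX10*, another defining marker, was listed at 0 in all 8 libraries. Only 5.39% of its exon bases overlap another gene, *POLR2F* on the opposite strand, and the reason for the 0 counts was not tested. Of 8 markers of other cell types 7 were matched, among which *PTPRC* and *CD3E* of immune cells and *EPCAM* and *CDH1* of epithelia stayed below 0.166 CPM or at it. *KRT14*, a keratin of basal epithelia, was the most abundant of these, at 11.6 to 21.0 CPM.

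The library of WT4 with serum stood apart in base composition. Across 17425 genes, Spearman's rho between GC content and a library's deviation from the mean of its condition was -0.40, -0.15, -0.19 and 0.47 with serum and -0.20, -0.12, 0.05 and 0.19 without. GC-rich genes were thus relatively high in WT4 with serum and relatively low in WT1 with serum. Genes are not independent replicates, and these coefficients only describe the libraries. The share of reads that did not map to 1 place was also uneven, at 22.7%, 16.8%, 7.09% and 10.1% with serum against 6.76%, 7.23%, 7.73% and 5.73% without, and its part in the results was not tested. Values without WT4 are given for *CDT1*, *POLD1*, *POLD2*, *LIG1* and *MCM5* and for the counts of genes in each list.

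Without serum the replication genes were lower as a group. The summed CPM of the 52 members was 6103, 5603, 5806 and 5853 with serum and 4688, 4465, 4308 and 3995 without. Each serum-free sum was below each serum sum. In edgeR's quasi-likelihood test at an adjusted p of 0.05, 47 of 52 members were lower without serum, where 14.0% of all tested genes were. None (0) was higher, against 11.1% of all genes, and the count upward was also 0 at an unadjusted p of 0.05, 0 with DESeq2 and 0 with limma voom. Of all tested genes 2477 were lower and 1957 higher, a split that became 1843 lower and 2508 higher with upper-quartile scaling. In bulk RNA, fewer cells in a phase of the cell cycle and less of these RNAs in each cell cannot be told apart.

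The fall was small and shared. The median log2 fold change of the members was -0.45 (quartiles -0.55 and -0.34), beside 0.03 over all tested genes (quartiles -0.22 and 0.36). All 52 fitted values were below 0, from -0.80 for *POLE2* to -0.08 for *POLD2*. In 43 members every serum-free library lay below every serum library, as in 15.0% of all tested genes, and in 0 members above, as in 12.6%. Line by line, 50 members were lower without serum in all 4 lines, as were 26.6% of tested genes, and the exceptions were *CDT1* and *POLD2*.

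The number of members that passed varied with the libraries used. Leaving out WT1, WT2, WT3 or WT4 altogether left 32, 32, 27 and 45 lower and 0 higher, with 3 libraries per group. The share of all tested genes called lower moved too, to 5.35%, 6.73%, 6.47% and 17.4% in these fits. Leaving out 1 serum library left 38, 42, 39 and 47 members, beside 9.29%, 10.2%, 9.47% and 17.9% of all tested genes. Leaving out 1 serum-free library left 43, 41, 38 and 37, beside 10.8%, 11.3%, 11.3% and 10.2%. In all 12 of these reduced fits, made on condition without the line as a block, 25 members kept their calls. With all libraries and the line as a block no member lost its call. Where a call was lost the log2 fold change stayed between -0.80 and -0.22. With upper-quartile scaling 39 members were lower, and *ORC4*, *MCM5*, *GINS3*, *GINS4*, *CDC7*, *POLE*, *RFC1* and *RFC4* no longer passed.

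**Figure D1:**
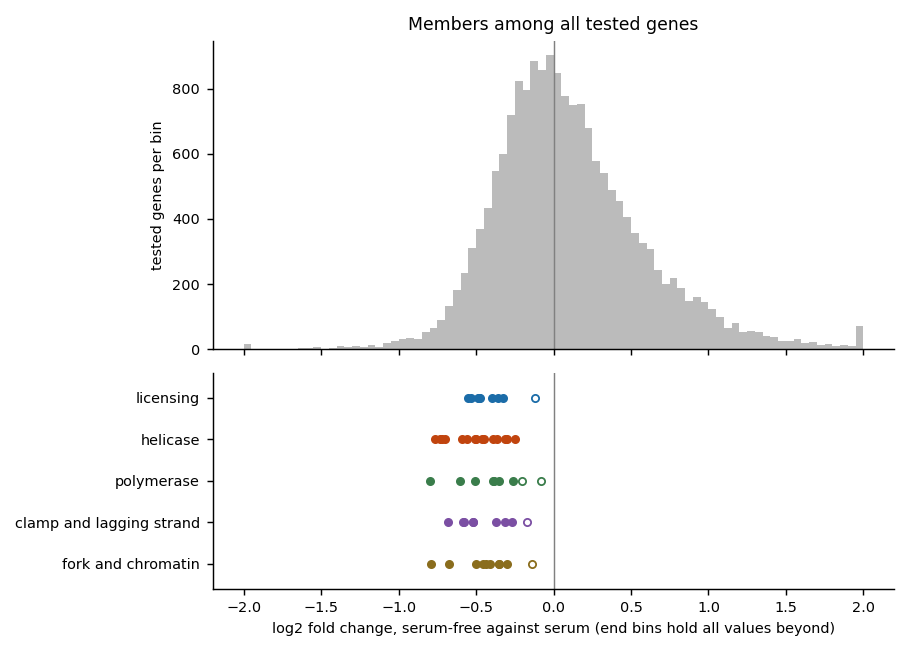
Log2 fold changes, serum-free against serum, of all 17671 tested genes (grey histogram, genes per bin of width 0.05) and of the 52 members by role (points below, filled where the adjusted p was under 0.05). All members lie to the left of 0, between -0.80 and -0.08, and 5 of them are open.

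The licensing group holds the origin recognition complex (*ORC1* to *ORC6*), its partners *CDC6* and *CDT1*, and *GMNN*, whose product geminin binds CDT1 and blocks relicensing. Of these 9 genes 8 passed the test as lower without serum and 1 did not pass, beside 14.0% of all tested genes lower. The median log2 fold change was -0.48. *ORC1* (ENSG00000085840, chr1:52372829-52409503), the largest subunit of the origin recognition complex, was at 81.5, 73.5, 80.1 and 86.0 CPM with serum and 63.4, 56.7, 58.9 and 50.0 CPM without. All serum-free values were under the lowest serum value, and WT4 had both the highest value with serum and the lowest without. The mean went from 80.3 ± 5.17 to 57.3 ± 5.56 CPM (SD, n = 4 here and below), a log2 fold change of -0.49 (SE 0.08, adjusted p = 0.00402). *CDC6* (ENSG00000094804, chr17:40287879-40304657), an ATPase that helps the complex load the MCM ring, stood at 151, 133, 139.9 and 127 CPM with serum and 111, 103, 97.8 and 83.9 CPM without. The groups did not overlap, WT1 being highest and WT4 lowest in each, and the log2 fold change was -0.48 (SE 0.09, adjusted p = 0.00633). *ORC5* (ENSG00000164815, chr7:104126341-104208013), another ATPase-fold subunit of the complex, measured 41.7, 43.8, 44.4 and 36.8 CPM with serum and 30.9, 31.1, 34.1 and 30.5 CPM without. Here WT4 was the lowest serum library, yet it still exceeded all 4 serum-free values, and the log2 fold change was -0.40 (SE 0.08, adjusted p = 0.00701). Calls were lost for *ORC5* without WT1 (-0.39, adjusted p = 0.0598) or WT2 (-0.36, adjusted p = 0.0628) and *CDC6* without WT3 (-0.48, adjusted p = 0.0501).

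*CDT1* was the licensing gene with the largest p. This gene (ENSG00000167513, chr16:88803789-88809258), the loader of the MCM ring that geminin inhibits, had values of 80.5, 80.3, 76.2 and 107 CPM with serum and 86.3, 80.7, 74.4 and 75.2 CPM without. The groups overlapped. WT1, WT2 and WT3 were nearly level between the conditions, while WT4 held the highest of all 8 values with serum and one of the lowest without. The log2 ratios within the lines were 0.10, 0.01, -0.04 and -0.51, and the fitted log2 fold change was -0.12 (SE 0.11, adjusted p = 0.459). Leaving out WT4 gave 0.03 and leaving out its serum library alone 0.00. With the line as a block and GC correction, described below, the fitted value was -0.39 (adjusted p = 3.19e-05). *GMNN*, by contrast, had a log2 fold change of -0.55 (SE 0.13, adjusted p = 0.0145), with all serum-free libraries below all serum libraries. It lost its call for the fits without WT1 (-0.57, adjusted p = 0.0537) or WT3 (-0.55, adjusted p = 0.0831).

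The 6 subunits of the origin recognition complex had log2 fold changes of -0.49, -0.48, -0.53, -0.32, -0.40 and -0.36 for *ORC1* to *ORC6*. All 6 passed the test. *ORC3* and *ORC4* had libraries that overlapped between the conditions, and in both it was the serum library of WT4 that reached down into the serum-free range. Of the 12 reduced fits, the call was lost for *ORC3* in 8, *ORC4* in 9 and *ORC6* in 3, and for *ORC2* without WT2 (-0.38, adjusted p = 0.0694) or WT3 (-0.48, adjusted p = 0.0560). With all libraries and the line as a block the adjusted p was 1.16e-04 for *ORC3*, 0.00235 for *ORC4* and 1.98e-04 for *ORC6*. Levels between genes were compared as RPKM, which divides by gene length. With serum, *ORC1* was at 25.7 ± 1.66 RPKM, *ORC6* at 14.2 ± 1.04 RPKM and *ORC5* at 11.2 ± 0.925 RPKM. The other subunits were lower, *ORC2* at 7.02 ± 0.796 RPKM, *ORC3* at 6.60 ± 1.27 RPKM and *ORC4* at 5.81 ± 0.714 RPKM. *ORC1* had the highest RPKM of the complex in all 8 libraries, but with the length of the longest transcript *ORC6* came first.

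**Figure D2:**
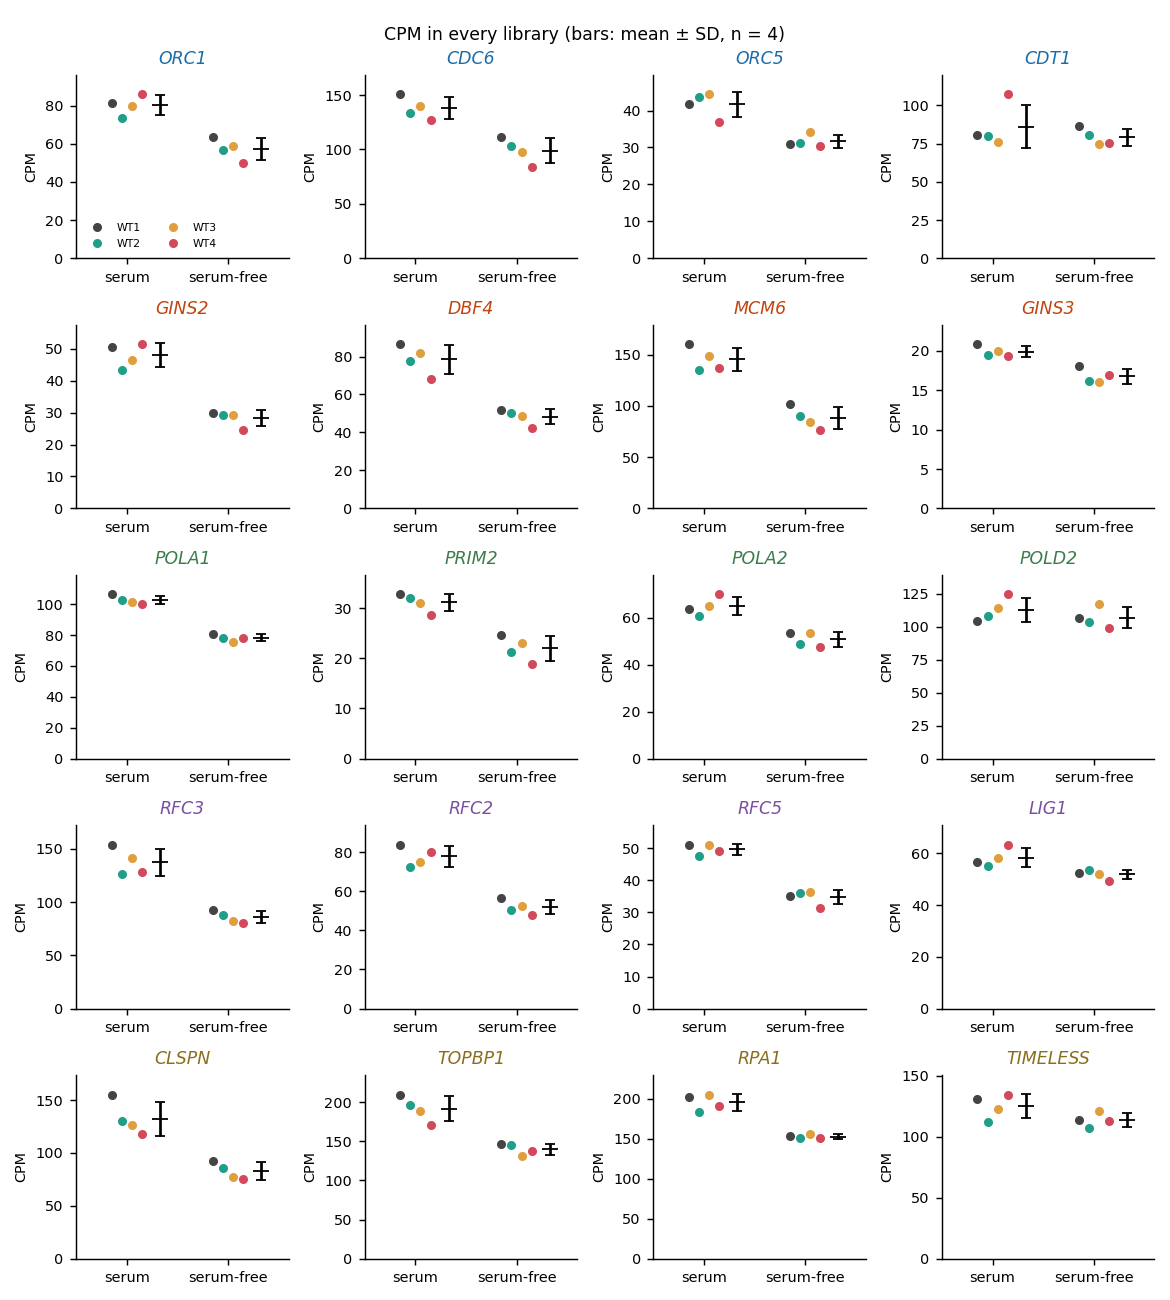
CPM of 20 members in every library, with serum on the left and without on the right of each panel (points: WT1 to WT4; bars: mean ± SD, n = 4; each axis starts at 0). Title colours follow the 5 roles, 1 row each. The groups overlap for *CDT1*, *POLD2* and *TIMELESS*, whereas *ORC1* goes from 80.3 ± 5.17 to 57.3 ± 5.56 CPM.

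In the fit on condition alone, the helicase group was the only role in which every gene passed, 15 of 15. Of all tested genes 14.0% were lower in that fit. The median log2 fold change of the helicase group was -0.50. With the line as a block the clamp group also passed in full, 9 of 9, beside 22.4% of all tested genes lower. With block and GC correction every role did, beside 24.5%. *GINS2* (ENSG00000131153, chr16:85676198-85688954), a subunit of the GINS tetramer that activates the MCM ring, was at 50.5, 43.4, 46.6 and 51.4 CPM with serum and 29.9, 29.2, 29.2 and 24.5 CPM without. The serum-free values were all far below the serum values, with WT4 highest with serum and lowest without. Its mean went from 48.0 ± 3.70 to 28.2 ± 2.49 CPM and its log2 fold change was -0.77 (SE 0.09, adjusted p = 0.00109). *DBF4* (ENSG00000006634, chr7:87876493-87909553), the regulatory partner of the CDC7 kinase that fires origins, gave 86.4, 77.6, 81.7 and 68.2 CPM with serum and 51.8, 50.4, 48.7 and 42.5 CPM without. WT4 was lowest in both groups and WT1 highest in both, and no library crossed over. The log2 fold change was -0.70 (SE 0.09, adjusted p = 0.00160). *MCM6* (ENSG00000076003, chr2:135839626-135876443), a subunit of the MCM ring, reached 160.0, 135, 149 and 137 CPM with serum and 102, 89.7, 84.6 and 76.6 CPM without. Again the groups were apart, with WT1 on top in each, and *MCM6* had a log2 fold change of -0.72 (SE 0.10, adjusted p = 0.00167). The catalytic partner *CDC7* was at -0.46 (SE 0.14, adjusted p = 0.0368), and lost its call in 9 of 12 reduced fits. With all libraries and the line as a block the adjusted p of *CDC7* was 2.50e-04.

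*GINS3*, a further subunit of the GINS tetramer, had the largest p of the helicase genes. It (ENSG00000181938, chr16:58392471-58406147) was at 20.8, 19.4, 20.0 and 19.4 CPM with serum and 18.1, 16.2, 16.0 and 16.9 CPM without. All serum-free values were below all serum values, but the gap was narrow, and 10.9% of the exon bases overlap an antisense gene. The log2 fold change was -0.25 (SE 0.08, adjusted p = 0.0455), and the call was kept in 5 of 8 alternatives that used all libraries and in 2 of 12 reduced fits, each lacking 1 library or 1 line, over which the fold change ran from -0.29 to -0.23.

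The ring subunits *MCM2* to *MCM7* all fell, with log2 fold changes of -0.39, -0.36, -0.50, -0.30, -0.72 and -0.31 in that order, lowest for *MCM6* and closest to 0 for *MCM5*. For *MCM5* the ratios within the lines were -0.14, -0.20, -0.26 and -0.59, farthest from 0 in WT4. Without WT4 the fitted value was -0.20 (adjusted p = 0.0358), and the call was lost with upper-quartile scaling (adjusted p = 0.0727). By level the ring was also uneven. *MCM7* was highest at 111 ± 7.45 RPKM with serum, followed by *MCM2* at 67.2 ± 3.92 RPKM, *MCM3* at 57.9 ± 3.26 RPKM and *MCM4* at 48.8 ± 2.01 RPKM. *MCM6* at 35.1 ± 2.82 RPKM and *MCM5* at 22.9 ± 2.68 RPKM were lowest. This order was the same in all 8 libraries, and *MCM7* was 4.49 to 5.11 times *MCM5* in RPKM. With the length of the longest transcript *MCM4* came before *MCM3*. In 12 fits with a library or line left out, the call was lost for *MCM5* in 7 and for *MCM7* without WT3 (-0.33, adjusted p = 0.0698). With all libraries and the line as a block the adjusted p was 0.00271 for *MCM5* and 7.41e-04 for *MCM7*. Whether the subunits differ in fold change was not tested. Counts of *MCM2* and *MCM7* are uncertain, as 23.6% and 7.90% of their exon bases overlap genes on the other strand.

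In the GINS tetramer the log2 fold changes of *GINS1* to *GINS4* were -0.59, -0.77, -0.25 and -0.45. *GINS4*, whose exons overlap an antisense gene over 23.4% of their bases, lost its call in 8 of 12 fits with a library or line left out. With all libraries and the line as a block the adjusted p of *GINS4* was 1.46e-04. GINS subunits are thought to act in equal numbers, but their RNA levels were not equal. With serum *GINS2* was at 14.9 ± 1.15 RPKM and *GINS1* at 11.8 ± 0.449 RPKM, while *GINS4* was at 4.76 ± 0.542 RPKM and *GINS3* at 3.90 ± 0.131 RPKM. Without serum *GINS2* went down to 8.76 ± 0.772 RPKM, close to *GINS1* at 7.81 ± 1.01 RPKM. With the length of the longest transcript *GINS1* came before *GINS2*. The other helicase genes named here, outside the ring and GINS, also fell. *MCM10*, which stimulates the helicase, had a log2 fold change of -0.73 (SE 0.11, adjusted p = 0.00204), *CDC45* -0.51 (SE 0.07, adjusted p = 0.00174) and *MCM8*, a paralog with a role in repair, -0.56 (SE 0.09, adjusted p = 0.00357). Counts of *MCM8* are uncertain, because 33.3% of its exon bases lie in another annotated gene on the same strand.

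**Figure D3:**
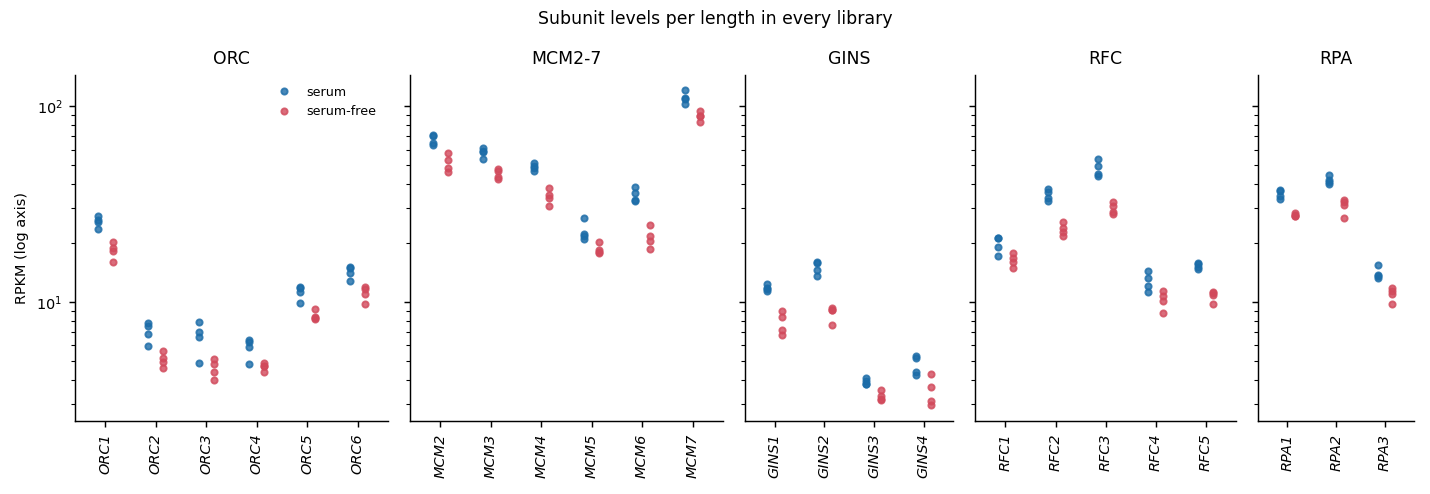
RPKM of the subunits of 5 complexes in every library, on a log axis (blue, serum; red, serum-free; 4 points each). *MCM7* tops the MCM panel at 111 ± 7.45 RPKM with serum and *GINS3* is at 3.90 ± 0.131 RPKM with serum, with *GINS4* below it in 2 of 4 serum-free libraries.

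The polymerase group comprises the primase and polymerase alpha, which start each strand, and polymerases delta and epsilon, which extend it. In it 7 of 9 genes passed the test as lower, beside 14.0% of all tested genes. The median log2 fold change was -0.39. *POLA1* (ENSG00000101868, chrX:24693918-24996986), the catalytic subunit of polymerase alpha, was at 106, 103, 102 and 100.2 CPM with serum and 81.1, 78.4, 75.4 and 78.4 CPM without. The libraries of each condition were tightly grouped and well separated, and the log2 fold change was -0.39 (SE 0.06, adjusted p = 0.00204). *PRIM2* (ENSG00000146143, chr6:57221540-57646850), the large subunit of primase, gave 32.8, 32.0, 31.1 and 28.7 CPM with serum and 24.7, 21.2, 23.1 and 19.0 CPM without. The conditions did not overlap, with WT4 lowest in both, and the log2 fold change was -0.50 (SE 0.09, adjusted p = 0.00542). *PRIM2* shares sequence with a near-identical copy, *PRIM2BP*, and 18.3% of its exon bases lie in other genes on the same strand, so its counts are uncertain. *POLA2* (ENSG00000014138, chr11:65261962-65305985), the second subunit of polymerase alpha, had 63.7, 60.8, 64.9 and 69.9 CPM with serum and 53.7, 48.7, 53.3 and 47.7 CPM without. WT4 was highest with serum and lowest without, the groups were apart, and the log2 fold change was -0.35 (SE 0.07, adjusted p = 0.00733). Parts of the exons of *POLA2* (16.8%), *PRIM1* (15.1%) and *POLD1* (8.63%) lie in other genes on the same strand, which adds uncertainty to their counts.

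Of the delta subunits, *POLD3* passed the test while *POLD1* and *POLD2* did not. *POLD2* (ENSG00000106628, chr7:44114680-44124325), an accessory subunit of polymerase delta, was at 104, 108, 114 and 124 CPM with serum and 107, 104, 118 and 99.1 CPM without. The groups overlapped, and only WT4 was much lower without serum. Ratios within the lines were 0.04, -0.06, 0.05 and -0.33 on the log2 scale and the fitted value was -0.08 (SE 0.08, adjusted p = 0.507), or 0.01 with WT4 left out. With block and GC correction the ratios were -0.22, -0.27, -0.17 and -0.41 and the fitted value -0.27 (adjusted p = 1.98e-04). *POLD1*, the catalytic subunit of polymerase delta, was at 125, 127, 134 and 153 CPM with serum and 119, 121, 119 and 110.4 CPM without. Its groups were just apart, but the log2 fold change of -0.20 (SE 0.08, adjusted p = 0.0786) missed the threshold and passed it with the line as a block (adjusted p = 0.0251). Without WT4 it was -0.11 (adjusted p = 0.147). *POLD3*, a further delta subunit, fell by 0.39 on the log2 scale (adjusted p = 0.00936). For polymerase epsilon, *POLE* had a log2 fold change of -0.26 (SE 0.07, adjusted p = 0.0207). The second epsilon subunit *POLE2* had the lowest fold change of all members, -0.80 (SE 0.17, adjusted p = 0.00848). *PRIM1*, the catalytic subunit of primase, was at -0.61 (SE 0.13, adjusted p = 0.00828). With a library or line left out, *POLE* lost its call in 6 of 12 fits, and calls ended for *PRIM1* without WT3 (-0.59, adjusted p = 0.0606), *POLD3* without WT2 (-0.41, adjusted p = 0.0505) or WT3 (-0.36, adjusted p = 0.0693) and *POLE2* without WT1 (-0.73, adjusted p = 0.0664) or WT3 (-0.80, adjusted p = 0.0543). With all libraries and the line as a block the adjusted p of *POLE* was 0.00307.

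The clamp group holds PCNA, the ring that tethers polymerases, the RFC proteins that load it, and the enzymes that finish the lagging strand. Here 8 of 9 passed the test as lower, beside 14.0% of all tested genes. The median log2 fold change was -0.52. *RFC3* (ENSG00000133119, chr13:33818149-33977377), a small subunit of the clamp loader, was at 154, 126, 141 and 129 CPM with serum and 92.7, 87.8, 82.3 and 80.2 CPM without. WT1 was highest in both groups, no library crossed over, and the log2 fold change was -0.68 (SE 0.08, adjusted p = 0.00116). *RFC2* (ENSG00000049541, chr7:74231502-74254399), a second small subunit, gave 83.8, 72.4, 74.8 and 80.2 CPM with serum and 56.6, 50.5, 52.5 and 47.8 CPM without. All 4 serum-free values were below the lowest serum value, with a log2 fold change of -0.58 (SE 0.08, adjusted p = 0.00157). *RFC5* (ENSG00000111445, chr12:118016703-118041448), another small subunit of the loader, had 50.9, 47.5, 51.1 and 49.0 CPM with serum and 35.0, 36.0, 36.2 and 31.5 CPM without. The spread within each condition was small, the groups were apart, and the log2 fold change was -0.52 (SE 0.07, adjusted p = 0.00171). A gene on the other strand overlaps 10.6% of the exon bases of *RFC5*, and its counts are uncertain to that extent.

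The large subunit *RFC1* and the small subunit *RFC4* had log2 fold changes of -0.27 (SE 0.09, adjusted p = 0.0494) and -0.31 (SE 0.10, adjusted p = 0.0496). Both had overlapping groups and lay at the edge of the threshold, each keeping its call in 6 of 8 alternatives with all libraries and in 3 of 12 with a library or line left out. With the line as a block the adjusted p was 0.00142 for *RFC1* and 0.00161 for *RFC4*, both being lower in all 4 lines. In RPKM with serum the loader ranked *RFC3* (48.1 ± 4.50), *RFC2* (35.2 ± 2.35), *RFC1* (19.7 ± 1.98), *RFC5* (15.3 ± 0.521) and *RFC4* (12.7 ± 1.36). The longest transcript's length put *RFC4* before *RFC5*. The clamp itself was far more abundant, *PCNA* being at 222 ± 12.6 RPKM with serum and 149 ± 20.9 RPKM without. Its log2 fold change was -0.58 (SE 0.10, adjusted p = 0.00394), with all serum-free libraries below all serum libraries.

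*LIG1*, the ligase that seals Okazaki fragments, had the largest p of the clamp group. It (ENSG00000105486, chr19:48115445-48170344) was at 56.4, 55.2, 58.2 and 63.3 CPM with serum and 52.4, 53.6, 52.0 and 49.2 CPM without. The groups did not overlap, though the highest serum-free library, WT2, was close to the lowest serum library, also WT2. The log2 fold change of -0.17 (SE 0.07, adjusted p = 0.0875) missed the threshold and passed it with the line as a block (adjusted p = 0.0468). Leaving out WT4 gave -0.10 (adjusted p = 0.190). Of the nucleases that trim Okazaki fragments, *FEN1* had a log2 fold change of -0.37 (SE 0.07, adjusted p = 0.00629) and *DNA2* -0.52 (SE 0.12, adjusted p = 0.0133). The call was lost for *DNA2* without WT3 (-0.45, adjusted p = 0.0850).

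The fork group covers proteins that coat single-stranded DNA, protect the fork or rebuild chromatin behind it. In this group 9 of 10 genes passed the test as lower, beside 14.0% of all tested genes. The median log2 fold change was -0.42. *CLSPN* (ENSG00000092853, chr1:35720213-35769978), claspin, which couples the fork to checkpoint kinase 1, was at 155, 130.2, 126 and 118 CPM with serum and 92.8, 85.9, 77.0 and 75.1 CPM without. WT1 was highest in each condition and WT4 lowest, without overlap, and the log2 fold change was -0.68 (SE 0.10, adjusted p = 0.00231). *TOPBP1* (ENSG00000163781, chr3:133600238-133661941), a scaffold for origin firing and checkpoint signalling, gave 209, 196, 189 and 171 CPM with serum and 146, 145, 131 and 137 CPM without. Values fell in every line and the groups were apart, with a log2 fold change of -0.45 (SE 0.08, adjusted p = 0.00337). *RPA1* (ENSG00000132383, chr17:1830005-1900082), the large subunit of the single-strand binding complex, had 203, 184, 205 and 191 CPM with serum and 153, 151, 156 and 151 CPM without. The serum-free libraries were almost identical to one another and all below the serum libraries, giving a log2 fold change of -0.36 (SE 0.06, adjusted p = 0.00357).

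*TIMELESS* (ENSG00000111602, chr12:56416363-56449426) binds TIPIN at the fork and was at 131, 112, 123 and 135 CPM with serum and 113, 107, 121 and 113 CPM without. Its groups overlapped, with WT1, WT3 and WT4 without serum above WT2 with serum. The log2 fold change was -0.14 (SE 0.07, adjusted p = 0.203), the largest p of the fork group, and with block and GC correction -0.22 (adjusted p = 0.00124). Its partner *TIPIN* was at 43.8, 35.7, 35.1 and 30.7 CPM with serum and 25.3, 22.7, 19.0 and 17.3 CPM without. Those groups were well apart, and *TIPIN* had a log2 fold change of -0.79 (SE 0.14, adjusted p = 0.00451), although 21.1% of its exon bases are shared with the pseudogene *RPL9P25*. Whether the fold changes of the pair differ was not tested.

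The 3 RPA subunits *RPA1*, *RPA2* and *RPA3* all passed the test, with log2 fold changes of -0.36, -0.44 and -0.35. In that order they were at 35.6 ± 1.86, 41.8 ± 2.05 and 14.0 ± 1.01 RPKM with serum. *RPA3* was the lowest of the 3 in all 8 libraries, while *RPA2* was above *RPA1* in 7 of 8. The subunits of chromatin assembly factor 1, which deposits histones on new DNA, had log2 fold changes of -0.30 (SE 0.08, adjusted p = 0.0210) for *CHAF1A* and -0.41 (SE 0.09, adjusted p = 0.00833) for *CHAF1B*. *SLBP*, which binds histone mRNA, was at -0.50 (SE 0.09, adjusted p = 0.00412). Over 12 fits with a library or line left out the call was lost for *RPA3* in 3 and *CHAF1A* in 7, and for *CHAF1B* without WT3 (-0.39, adjusted p = 0.0560). With all libraries and the line as a block the adjusted p was 4.44e-04 for *RPA3* and 0.00247 for *CHAF1A*.

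**Figure D4:**
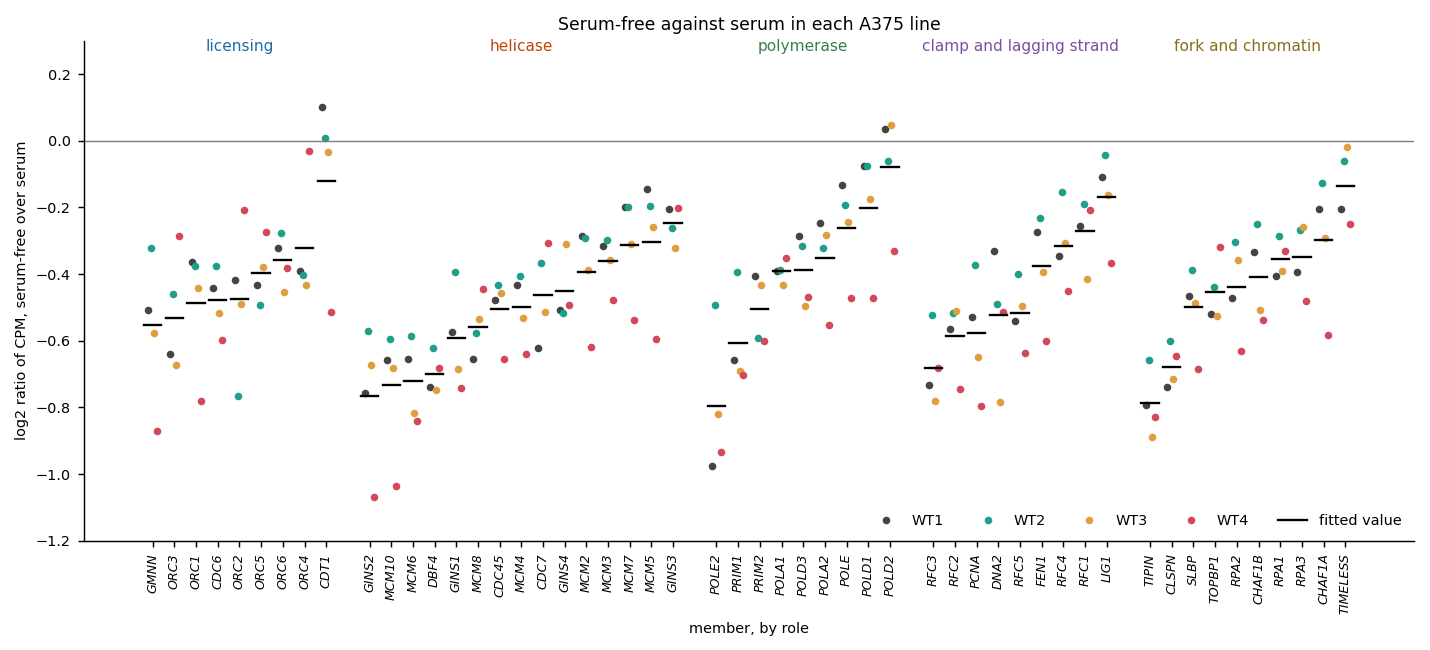
Log2 ratio of CPM, serum-free over serum, within each line (coloured points) for the 52 members by role, with the fitted log2 fold change as a black bar. Points above 0 occur only for *CDT1* and *POLD2*, and the red points of WT4 are the lowest of the 4 in 32 members.

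The lines differed in how far the members fell. The median log2 ratio of the 52 members was -0.41, -0.37, -0.45 and -0.55 in WT1 to WT4, beside 0.02, 0.03, 0.02 and 0.04 over all tested genes. In these lines 50, 51, 51 and 52 of the 52 members were lower without serum, beside 48.6%, 47.3%, 48.8% and 46.2% of all tested genes. WT4 thus had the lowest median and no member above 0. This did not hold for the 17 members poorest in GC, whose medians were -0.52, -0.49, -0.53 and -0.45, but for the middle 18 (-0.47, -0.37, -0.50 and -0.63) and the 17 richest (-0.21, -0.20, -0.29 and -0.55). It gave the lowest of the 4 ratios for 32 members, against 5, 3 and 12 in WT1, WT2 and WT3. Without WT4 45 members passed the test, and without its serum library alone 47 did.

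Among the members, fold changes were closer to 0 where transcripts were richer in GC. Spearman's rho of fold change with GC content was 0.53 over the 52 members and 0.36 over 17425 tested genes, all measured in the same 8 libraries. The 17 members poorest in GC (35.2% to 43.2%) had a median log2 fold change of -0.50 and the middle 18 one of -0.49. The 17 richest (48.6% to 64.3%) had -0.31, and 12 of them passed the test, beside 14.0% of all tested genes lower. The 5 members that did not pass, *CDT1*, *POLD1*, *POLD2*, *LIG1* and *TIMELESS*, were all among these, with GC contents of 64.3%, 63.9%, 58.7%, 56.6% and 51.9%. Within the lines, rho over the members was 0.59, 0.65, 0.65 and -0.06, so the relation held in WT1, WT2 and WT3 and was absent in WT4.

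The fit was repeated with the line as a block and each library's dependence on GC content removed. All 52 members were then lower without serum, where 24.5% of tested genes were lower and 21.7% higher. With the block alone 49 members passed, beside 22.4% of tested genes lower and 23.2% higher. After the correction the members' median was -0.45, the range -0.80 to -0.14, and rho with GC content -0.20. For *CDT1* the ratios within the lines became -0.29, -0.32, -0.34 and -0.61 and the fitted value -0.39 (adjusted p = 3.19e-05). *POLD1* was at -0.47 (adjusted p = 6.73e-07), *POLD2* at -0.27 (1.98e-04), *LIG1* at -0.32 (8.37e-05) and *TIMELESS* at -0.22 (0.00124). Fold changes of 14 members moved by over 1.5 times, 9 away from 0 and 5 towards it. Besides those 5 and *MCM5* and *MCM7*, farther from 0 were *POLE* (-0.40) and *CHAF1A* (-0.47), all of them rich in GC. Closer to 0 were the GC-poor *PRIM2* (-0.28, adjusted p = 0.00763), *ORC4* (-0.14, 0.0424), *CDC7* (-0.30, 0.00141), *RFC1* (-0.17, 0.00591) and *DNA2* (-0.35, 9.10e-04). The correction takes out any dependence on GC content, whatever its source, and the source was not tested.

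The same correction changed the distances between subunits within complexes. Between the lowest and highest log2 fold change of the MCM ring the distance shrank from 0.42 to 0.22, with *MCM5* going from -0.30 to -0.46 and *MCM7* from -0.31 to -0.48. In the origin recognition complex it grew from 0.21 to 0.42, with the GC-poor *ORC4* going from -0.32 to -0.14. It grew also in GINS, from 0.52 to 0.61, and in RFC, from 0.41 to 0.51, while in RPA it was 0.09 before and 0.11 after. *GINS2* and *MCM6*, low before, stayed low at -0.80 and -0.66. Across the 52 members, rho of fold change with mean RPKM with serum was -0.01 before the correction and -0.41 after it, and rho with merged exon length, by which RPKM divides, was 0.35 and 0.43. Level and length were not separated, and RPKM with serum is also the base of the fold change.

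**Figure D5:**
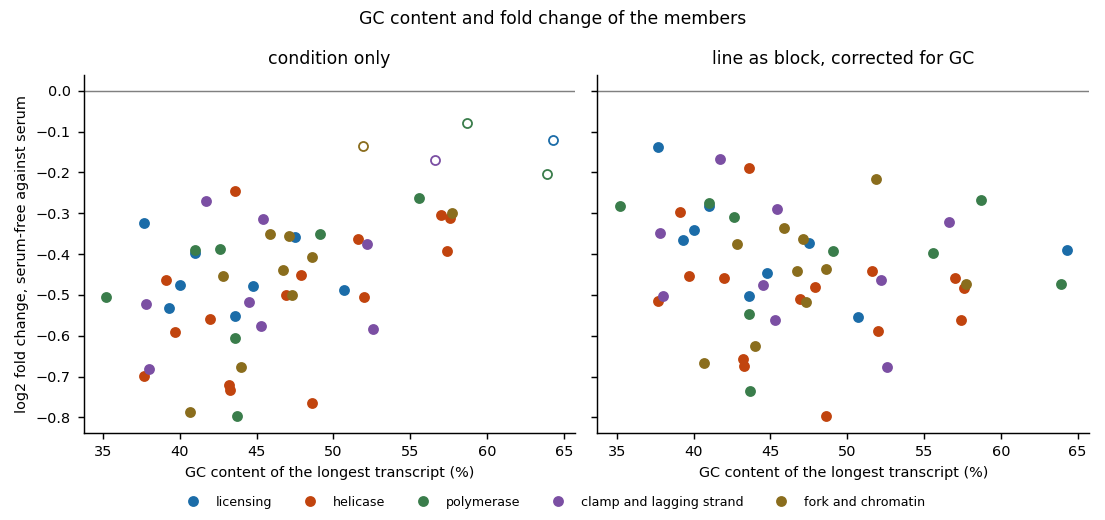
GC content of the longest transcript (percent) against log2 fold change for the 52 members, coloured by role and filled where the adjusted p was under 0.05, in the fit on condition alone (left) and with the line as a block and GC correction (right). The 5 open points on the left, all among the 17 members richest in GC, are filled on the right.

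Promoter sequence, which was not used to choose the members, was examined next. RefSeq promoter windows of GRCh38.p14, from 250 bases before to 50 after the start, were searched for 45 of the 52 members, using the first window of each gene. *MCM4*, *MCM5*, *GINS4*, *POLD3*, *DNA2*, *RPA2* and *RPA3* had no entry. An E2F motif, spelled TTTGGCGC, TTTGCCGC, TTTCGCGC or TTTCCCGC on either strand, was present in 20 member promoters (44.4%), against 908 of 27303 promoters of all genes (3.33%). Over every window listed the shares were 41.1% of 56 and 3.31% of 35114. With TTTGGCGC and TTTCGCGC alone they were 26.7% of the members and 1.18% of all. Some first windows lay wholly inside the gene rather than at its outer start. These were *PRIM2* (window chr6:57314555-57314854, gene from 57221540), *ORC1* (window chr1:52404374-52404673, minus-strand gene to 52409503), *CDC45* and *POLD2*. All of these counted as lacking an E2F motif. By role the share with all spellings was highest in the helicase group, 8 of 12, and lowest in the fork group, 2 of 8. With the stricter letters the helicase (6 of 12) and polymerase (4 of 8) groups were level, and the clamp group was lowest, 0 of 8.

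The stretches below, each ending before the start site, show these letters in members with library values above. They are printed 5′ to 3′ with the E2F motif on either strand in capitals, and in *MCM6* a pair of matches on opposite strands overlap. In GRCh38.p14 they lie at chr16:88803709-88803788 (plus strand) for *CDT1*, chr16:85688955-85689034 (minus strand) for *GINS2*, chr2:135876486-135876565 (minus strand) for *MCM6*, chrX:24693745-24693824 (plus strand) for *POLA1*, chr11:65261873-65261952 (plus strand) for *POLA2*, chr13:33818058-33818137 (plus strand) for *RFC3* and chr19:48170415-48170494 (minus strand) for *LIG1*. The set holds genes with some of the lowest fold changes, *GINS2*, *MCM6* and *RFC3*, and also *CDT1* and *LIG1*, which did not pass the test.
CDT1: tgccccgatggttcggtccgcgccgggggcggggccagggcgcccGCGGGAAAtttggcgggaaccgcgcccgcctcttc
GINS2: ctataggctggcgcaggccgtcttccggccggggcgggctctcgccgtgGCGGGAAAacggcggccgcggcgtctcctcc
MCM6: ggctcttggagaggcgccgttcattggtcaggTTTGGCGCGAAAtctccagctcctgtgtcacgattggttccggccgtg
POLA1: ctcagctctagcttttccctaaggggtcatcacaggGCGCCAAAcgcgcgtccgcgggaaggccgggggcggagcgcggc
POLA2: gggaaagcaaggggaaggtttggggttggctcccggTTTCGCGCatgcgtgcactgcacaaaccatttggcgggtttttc
RFC3: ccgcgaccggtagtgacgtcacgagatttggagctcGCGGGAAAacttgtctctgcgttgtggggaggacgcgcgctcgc
LIG1: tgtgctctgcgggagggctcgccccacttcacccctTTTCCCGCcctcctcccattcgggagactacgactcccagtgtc

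Among the members searched for the E2F motif, the median log2 fold change was -0.47 in the 20 with it and -0.46 in the 25 without. The test was passed by 18 and 22 of them, beside 14.0% of all tested genes lower, and the difference was not tested. The CCAAT box (CCAAT, both strands) was in 55.6% of member promoters and 35.7% of all. The median log2 fold change was -0.49 in the 25 members with this box and -0.40 in the 20 without. Of these 23 and 17 passed, beside the same 14.0% of all tested genes, and the difference was not tested. The CHR element (TTTGAA or TTCGAA, both strands) was in 2 member promoters (4.44%), *MCM6* and *DBF4*, against 16.6% of all. Of 21 promoters of the mitosis genes listed for comparison, 17 held the CHR element, 16 the CCAAT box (76.2%) and 2 the E2F motif (9.52%). Of 32 promoters of other replication genes, 2 held the CHR element (6.25%), 18 the CCAAT box (56.2%) and 4 the E2F motif (12.5%). The promoters of all genes include those of genes not tested here. Member windows held 38.3% to 78.3% GC, and shares were not matched for base composition, which also affects how often such letters occur. A match is a stretch of letters and says nothing of binding in these cells.

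A second list held 39 other replication genes, all tested. Of these 22 were lower without serum (14.0% of all tested genes), 1 was higher (11.1%) and 16 did not pass, and the median log2 fold change was -0.29, between that of the members and that of all genes. With the line as a block 28 were lower and 1 higher, beside 22.4% and 23.2% of all tested genes. With block and GC correction 29 were lower and 2 higher, beside 24.5% and 21.7%, the second being *ETAA1*, named after its values were seen. By smallest p, given with their log2 fold changes, came *DSCC1* (-0.67, adjusted p = 0.00137), a subunit of an alternative clamp loader, *POLE3* (-0.58, adjusted p = 0.00235), a histone-fold subunit of polymerase epsilon, and *TOP2A* (-0.42, adjusted p = 0.00402), which untangles DNA. *POLD4*, the smallest subunit of polymerase delta, was the one that rose, from 2.60, 3.26, 3.36 and 5.60 to 5.88, 6.28, 6.32 and 6.88 CPM. Its WT4 serum library nearly reached the serum-free range, and its log2 fold change was 0.78 (SE 0.22, adjusted p = 0.0286). Leaving out WT1, WT2, WT3 or WT4 left 10, 9, 8 and 25 of the list lower, beside 5.35%, 6.73%, 6.47% and 17.4% of all tested genes. For *POLD4* the call was kept in 2 of 12 reduced fits, over which its log2 fold change ran from 0.64 to 1.04. The delta subunits thus covered -0.39 for *POLD3*, -0.20 for *POLD1*, -0.08 for *POLD2* and 0.78 for *POLD4*, and they differ in GC content (42.6%, 63.9%, 58.7% and 58.8%). With block and GC correction they were at -0.31, -0.47, -0.27 and 0.63 in that order.

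Of 24 mitosis genes set beside the members, 20 were lower and 0 higher without serum (14.0% and 11.1% of all tested genes), with a median log2 fold change of -0.40 beside -0.45 for the members. By smallest p, given with log2 fold changes, came *CDK1* (-0.81, adjusted p = 9.96e-04), *CDC20* (-0.65, adjusted p = 0.00164) and *KIF23* (-0.56, adjusted p = 0.00193). *PLK1*, *KIF20A*, *CENPF* and *NDC80* did not pass, and these 4 were named after their values were seen. With the line as a block all 24 were lower, beside 22.4% of all tested genes. With block and GC correction 22 were, beside 24.5%. In that fit *CENPF* was at -0.03 (adjusted p = 0.607) and *NDC80* at -0.06 (adjusted p = 0.416). Leaving out WT1, WT2, WT3 or WT4 left 11, 13, 15 and 17 lower, where 5.35%, 6.73%, 6.47% and 17.4% of all tested genes were. The count upward was also 0 at an unadjusted p of 0.05, 0 with DESeq2 and 0 with limma voom. No test was made between the lists.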

How the data were processed

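RNA was sequenced from 8 libraries, 4 lines of the human melanoma cell line A375 with and without serum. The deposited values were raw read counts per Ensembl gene, made by the authors with cutadapt, TopHat2 2.0.11 and HTSeq on build GRCh38, as the submitters' processing notes list them. Which annotation release and strand setting were used is not given in the sources used here, so counts of genes that overlap others are uncertain, and the paper's methods name hg19 for its FPKM values. Reads on genes per library ranged from 29759279 to 73341551. Reads that were ambiguous or mapped to several places were not counted on genes.

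After filterByExpr and TMM scaling, counts were fitted on condition with the robust quasi-likelihood functions of edgeR 4.0.16 in R 4.3.3. Tests were two-sided and Benjamini-Hochberg adjusted over the 17671 tested genes, with a threshold of 0.05. The alternatives were the line as replicate block, DESeq2 1.42.0, voom of limma 3.58.1, RLE and upper-quartile scaling, no filter, at least 10 counts in every library, each library and each line left out, and the block with a GC correction, a lowess offset per library on transcript GC content. Functions were tested on simulated data. RPKM used merged exon lengths. Lengths, GC content and overlaps came from GENCODE v44 lifted to GRCh37, and coordinates and promoter windows from RefSeq GRCh38.p14. Ensembl identifiers of 55604 genes matched a symbol. Of the marker genes *PECAM1* was not matched.

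The members, in 5 roles, and the lists of other replication and mitosis genes were chosen with earlier results of these data known. Named genes were, in each role, the 3 members with the smallest p and the one with the largest, the subunits of the ORC, MCM, GINS, RFC and RPA complexes, and for the other lists the 3 genes with the smallest p and any that rose. Other genes named, such as *POLE2*, *TIPIN*, *PCNA*, *POLD1* and *MCM10*, and the genes whose promoters are printed, were chosen after their values were seen. Lines were paired by their labels. Across genes, deviations from the condition means correlated within lines at 0.40, 0.59, 0.46 and 0.60, and at most at 0.13 between lines. A planned search for protein motifs was not run, as no protein sequences were used here.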

Additional observations from a re-analysis of the deposited data

Results flagged for a closer look

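Among 4 values per condition, a value was marked when its gap to the next exceeded Dixon's critical ratio, which chance does in about 1 in 20 groups. Of 86 groups 4 were marked. With serum, *CDT1* was high in WT4 at 107 CPM, where the others lay between 76.2 and 80.5 CPM. *RPA3* with serum was high in WT1 at 50.0 CPM, the others lying between 42.9 and 44.0 CPM. *TOP2A* with serum was low in WT2 at 757 CPM, beside 878 to 895 CPM. Without serum *GINS2* was low in WT4 at 24.5 CPM, beside 29.2 to 29.9 CPM.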

How the results depend on the processing

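With all libraries, members lower without serum numbered 47 with DESeq2 (16.8% of all tested genes), 47 with voom (14.4%), 47 with RLE (14.5%), 46 without a filter (6.47%), 44 with at least 10 counts in every library (15.6%) and 39 with upper-quartile scaling (10.4%). The replicate block gave 49 (22.4%), adding *POLD1* and *LIG1*, and changed no other member's call; with the GC correction it gave 52 (24.5%). Leaving out a library or a line gave 27 to 47 members, 8 to 25 other replication genes and 11 to 20 mitosis genes. These counts stood beside 5.35% to 17.9% of all tested genes lower, and the cause was not tested. Over these fits the log2 fold change of *CDT1* ran from -0.196 to 0.0273 and that of *POLD2* from -0.134 to 0.00798, and the cause was not tested either. The length of the longest transcript kept the rank of 14 of 24 subunits. The stricter E2F letters were found in 12 of 45 promoters, fewer spellings being searched. Members whose libraries did not overlap numbered 43 with RLE, 41 with upper-quartile scaling and 33 with library sizes without TMM, an alternative chosen after seeing the data. Among all 17671 tested genes the serum-free libraries lay wholly below for 2798, 1977 and 1448 under these scalings. They lay wholly above for 2128, 2841 and 3525, and for 0 members each time. Over the fold changes of 42 genes under 20 alternatives, 740 of 840 values kept their direction and side of the threshold, 92 lost the threshold, 5 gained it and 3 changed sign.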
